A study of Mus musculus with 22 samples.

Results

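The imprinted cluster that runs from Dlk1 to Dio3 on mouse chromosome 12 was read by 12 of the 41174 probes on the arrays, for 6 of 20615 named genes. Members were taken by the gene name that the scanner files give a probe, with Meg3 under its older name Gtl2 and Dio3os under Dio3as, and every probe was kept apart. This gave 2 probes for Dlk1, 5 for Meg3, 2 for Rian, 1 for Mirg, 1 for Dio3os and 1 for Dio3. The members were chosen from values of these same arrays, namely the knockout over control ratio at both ages and the P1 and E15 levels of the control animals, so those values are given as a description with no p-value. The level of a knockout animal is read on the same arrays and, at P1, equals the level of its control plus that ratio. The age differences of the members in knockout brains are therefore a description too, and p-values of that comparison are given only for genes that are not members.

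In this cluster the paternal chromosome expresses the protein-coding genes Dlk1 and Dio3, and the maternal chromosome expresses the non-coding RNAs Meg3, Rian and Mirg. Dlk1 encodes a membrane protein related to Notch ligands that is abundant in embryonic tissues and in growing muscle. Meg3, Rian and Mirg lie in 1 direction and host small RNAs, C/D box small nucleolar RNAs in Rian and many microRNAs in Mirg, and Meg3 and its neighbours are abundant in neurons. Dio3 encodes the deiodinase that inactivates thyroid hormone, and Dio3os is a non-coding RNA read from the opposite strand beside it.

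The study set RNA of whole brains from mice labelled Agtr2 knockout (Agtr2 encodes the angiotensin II type 2 receptor) against RNA of control brains on 22 dual-colour Agilent arrays, 1 animal of each kind per array. The groups were P1 knockout (4 animals, 8 arrays), P1 control (4 animals), E15 knockout (8 animals, 14 arrays) and E15 control (6 animals), where E15 is embryonic day 15 and P1 postnatal day 1. Each knockout animal was hybridised in both dye orientations except E15 replicates 3 and 4, and some E15 controls served several knockout replicates. Replicates 1, 4 and 7 are linked in this way, as are 2, 3 and 8, and the 2 arrays of replicates 1 and 2 carry different controls. The labels give no strain, sex, litter or targeting construct, and name the animals biological replicates.

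A value is a log2 ratio of knockout over control for an animal pair or a log2 level of 1 animal in its own channel, as said in each place. The Agtr2 probe did not separate the groups (0.11 at P1, SE 0.08, n = 4, and -0.39 at E15, SE 0.31, n = 8, limma adjusted p = 0.690 and 0.804), and whether it lies in the deleted part is not given, so it does not check the labels. Between 71.3% and 89.5% of spots per P1 array and between 74.9% and 89.3% per E15 array were well above background. Across all probes 0 of 34920 at P1 and 0 of 34175 at E15 passed limma's test of knockout over control at an adjusted p of 0.05, with 3427 and 2203 at an unadjusted p under that value. All P1 arrays were scanned on 1 day, with another version of the scanner software than the E15 arrays, so age and run cannot be told apart in any P1 and E15 comparison below.

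The deposited probe positions, on a genome build the files do not state, place the members on chromosome 12 between 104938426 and 105756201, with the Dio3os probe on the minus strand and the others on the plus strand. The 2 Dlk1 probes lie 0.239 kb apart. The 5 Meg3 probes lie 89.5 to 111.2 kb from the first Dlk1 probe, the Rian probes 190.7 and 199.2 kb, the Mirg probe 279.9 kb, the Dio3os probe 814.0 kb and the Dio3 probe 817.7 kb. Meg3 probe A_52_P391505 is given from 105027970 to 105036455, a placement with a gap. All 12 passed the filter on dim probes at both ages.

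Start-site windows from RefSeq, build GRCm38.p6, are shown for Meg3, Dlk1 and Dio3 because Meg3 and Dlk1 differed in opposite directions between the ages and Dio3 closes the cluster. Each holds 250 bases before and 50 after the start, and capitals mark TGACGTCA (a cyclic AMP response element), TATAAA and CCAAT on either strand. The lines give chr12:109540746-109541045 for Meg3, chr12:109452573-109452872 for Dlk1 and chr12:110278980-110279279 for Dio3, all on the plus strand.
Meg3: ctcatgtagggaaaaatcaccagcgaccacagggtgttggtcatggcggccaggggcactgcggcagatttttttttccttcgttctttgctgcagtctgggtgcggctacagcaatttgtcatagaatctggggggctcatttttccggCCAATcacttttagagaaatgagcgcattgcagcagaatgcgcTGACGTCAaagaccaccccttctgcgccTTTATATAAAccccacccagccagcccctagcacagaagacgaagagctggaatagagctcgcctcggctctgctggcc
Dlk1: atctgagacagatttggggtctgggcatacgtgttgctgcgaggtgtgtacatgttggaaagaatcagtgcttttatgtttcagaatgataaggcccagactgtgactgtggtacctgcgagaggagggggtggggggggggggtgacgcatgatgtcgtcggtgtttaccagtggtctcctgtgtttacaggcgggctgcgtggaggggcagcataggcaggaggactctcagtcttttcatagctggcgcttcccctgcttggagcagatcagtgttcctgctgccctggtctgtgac
Dio3: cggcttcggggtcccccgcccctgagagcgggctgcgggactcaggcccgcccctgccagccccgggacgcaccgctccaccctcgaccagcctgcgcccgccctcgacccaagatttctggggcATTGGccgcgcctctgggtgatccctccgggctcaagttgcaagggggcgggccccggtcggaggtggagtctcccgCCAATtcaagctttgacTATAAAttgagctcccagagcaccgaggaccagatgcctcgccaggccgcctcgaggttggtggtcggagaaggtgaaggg

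The Meg3 window, at the first of 2 annotated starts, holds TGACGTCA starting 57 bases before the start site, a motif found in 1.79% of 32851 RefSeq windows of this length. It also holds CCAAT at -100 (37.4% of windows) and TATAAA at -25, which overlaps a match on the other strand at -29 (13.6% of windows hold it). The Dlk1 window holds none of these 3 motifs. That window begins at 109452573, after the first annotated base of Dlk1 at 109452485, so the sequence before that base was not searched. The Dio3 window holds TATAAA at -31 and CCAAT at -125 and -48, and has 25 CpG pairs against a median of 7 over all windows. The Dio3os window on the other strand has 53 CpG pairs, more than 99.55% of windows. A motif match is a match of letters only.

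Mature microRNAs were not measured by these probes. The RefSeq table places 114 of them between Dlk1 and Dio3, of which 19 lie on the strand and within the span of Mirg, 6 within Rian and 3 within Meg3. They are shown for Mirg because its groups did not overlap at P1 and all 8 P1 arrays were above 0, and because 4 of its 19 have seeds (bases 2 to 8, in capitals) that begin GGUU, as do 0.748% of the mature microRNAs in the table.
miR-453: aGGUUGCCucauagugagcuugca
miR-496a-5p: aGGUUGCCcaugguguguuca
miR-410-5p: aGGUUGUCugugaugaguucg
miR-409-5p: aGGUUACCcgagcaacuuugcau

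The first of these (chr12:109735669-109735692) and the second (chr12:109739132-109739152) share the whole seed GGUUGCC, and the others (chr12:109743729-109743749 and chr12:109743172-109743194) have seeds of their own. All 4 lie on the plus strand. The share of GGUU seeds was not tested, and nothing is read from it.

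At P1 the maternally expressed RNA Mirg, 1 Rian probe and 1 Meg3 probe were higher in every knockout brain than in its control. Dlk1 was not. The other Rian probe, A_52_P244, was above 0 in all 4 replicate means, but by a mean of only 0.06. Of the 12 probes, 9 had a mean ratio above 0 (median over the 12 of 0.29, against 0.00 over all probes), and 4 were above 0 in all 4 replicates, which was so for 10.8% of all probes (8.38% were below 0 in all 4). The choice of members used this contrast, so nothing is read from these counts.

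Mirg, the microRNA host at the distal end of the maternal transcripts, had log2 levels of 8.11, 7.83, 7.89 and 7.93 in P1 knockout brains, against 7.53, 6.96, 6.94 and 7.12 in P1 control brains. The groups did not overlap, as was so for 1.34% of all probes with knockout brains above and 1.10% with them below. Its knockout over control ratio was 0.58, 0.87, 0.94 and 0.82 in replicates 1 to 4, a mean of 0.80 (SE 0.07, SD 0.16, n = 4). Both dye orientations of every replicate were above 0, from 0.26 to 1.38 over the 8 arrays. All 8 P1 arrays were above 0 for 1.76% of probes and below 0 for 0.839%. The size depends on the signal used, since the scanner's processed signals gave 1.20 and normexp with an offset of 16 gave 1.01. The control channels were dim, with a median scanned signal of 112.7 units at P1, against 282.4 in knockout channels.

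Rian, the host of small nucleolar RNAs, gave different values at its 2 probes. Probe A_52_P102630 had log2 levels of 6.93, 6.88, 7.24 and 7.03 in P1 knockout brains, against 6.62, 6.51, 6.59 and 6.57 in P1 control brains. Those groups did not overlap, and the ratio was 0.45 (SE 0.07, SD 0.15, n = 4), above 0 on all 8 arrays. This probe is dim, with a median scanned signal of 120.8 units in knockout and 82.7 in control channels at P1, and its ratio was 0.97 with the processed signals. Probe A_52_P244 had levels of 8.35, 8.06, 8.76 and 8.56 in knockout brains and of 8.30, 8.04, 8.63 and 8.52 in control brains. Its ratio was 0.06 (SE 0.04, SD 0.05, n = 4). Both probes had a replicate mean above 0 in 4 of 4 pairs, but at the second the difference is small beside the spread between animals, and 3 of its 8 arrays were below 0 (-0.44, -0.23 and -0.23). In replicates 2, 3 and 4 its 2 dye orientations had opposite signs.

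Meg3 varied along its transcript. The brightest probe, A_51_P455997, had levels of 11.89, 11.56, 11.54 and 11.57 in P1 knockout brains, against 11.47, 11.11, 11.004 and 10.52 in P1 control brains, so the groups did not overlap. Its ratio was 0.61 (SE 0.12, SD 0.30, n = 4), with replicate 4 read in 1 orientation because the other spot was marked an outlier. Probe A_52_P196568 had the largest mean of the cluster, 0.92 (SE 0.27, SD 0.70, n = 4), with replicate values of -0.06, 1.12, 1.01 and 1.59. Its levels were 10.70, 11.62, 11.55 and 12.06 in knockout brains and 10.76, 10.49, 10.54 and 10.47 in control brains, and they overlapped through replicate 1 alone.

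The remaining Meg3 probes also set replicate 1 apart. A_51_P109649 gave -0.88, 0.85, 0.97 and 0.64, A_52_P99341 gave -0.86, 0.65, 0.81 and 0.13, and A_52_P391505 gave -1.11, 0.24, 0.37 and 0.11. Without replicate 1 their means were 0.82, 0.53 and 0.24, against 0.40, 0.18 and -0.10 with it. The replicate 1 value of A_51_P109649 rests on 1 array, because the other spot was marked an outlier. In replicate 4 the 2 dye orientations of that probe gave 1.81 and -0.52. Those of A_52_P391505 had opposite signs in replicates 3 and 4. In replicate 1 the median ratio of 13 neuron markers was -0.53, that of 14 forebrain markers 0.61 and that of 16 markers of meninges and fibroblasts 0.42, against -0.21 to 0.15, -0.49 to 0.72 and -0.28 to 0.04 in the other replicates. Their part in the Meg3 values was not tested.

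Dlk1 did not separate the P1 groups. Probe A_51_P135618 had levels of 8.53, 8.67, 9.23 and 9.03 in knockout brains, against 8.73, 8.41, 8.60 and 9.18 in control brains, a ratio of 0.14 (SE 0.15, SD 0.39, n = 4). Probe A_52_P177324 gave -0.03 (SE 0.12, SD 0.30, n = 4), with 3 of 4 replicates above 0. This probe is dim at P1, with a median scanned signal of 105.8 units in knockout and 102.9 in control channels. Dio3 had ratios of 1.06, 0.51 and 0.00 in replicates 1, 2 and 4, a mean of 0.52 (SD 0.53, n = 3), because 4 of its 8 spots were marked outliers and replicate 3 had none left. With those spots kept its values were 0.83, -0.02, 0.65 and 0.00.

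**Figure D1:**
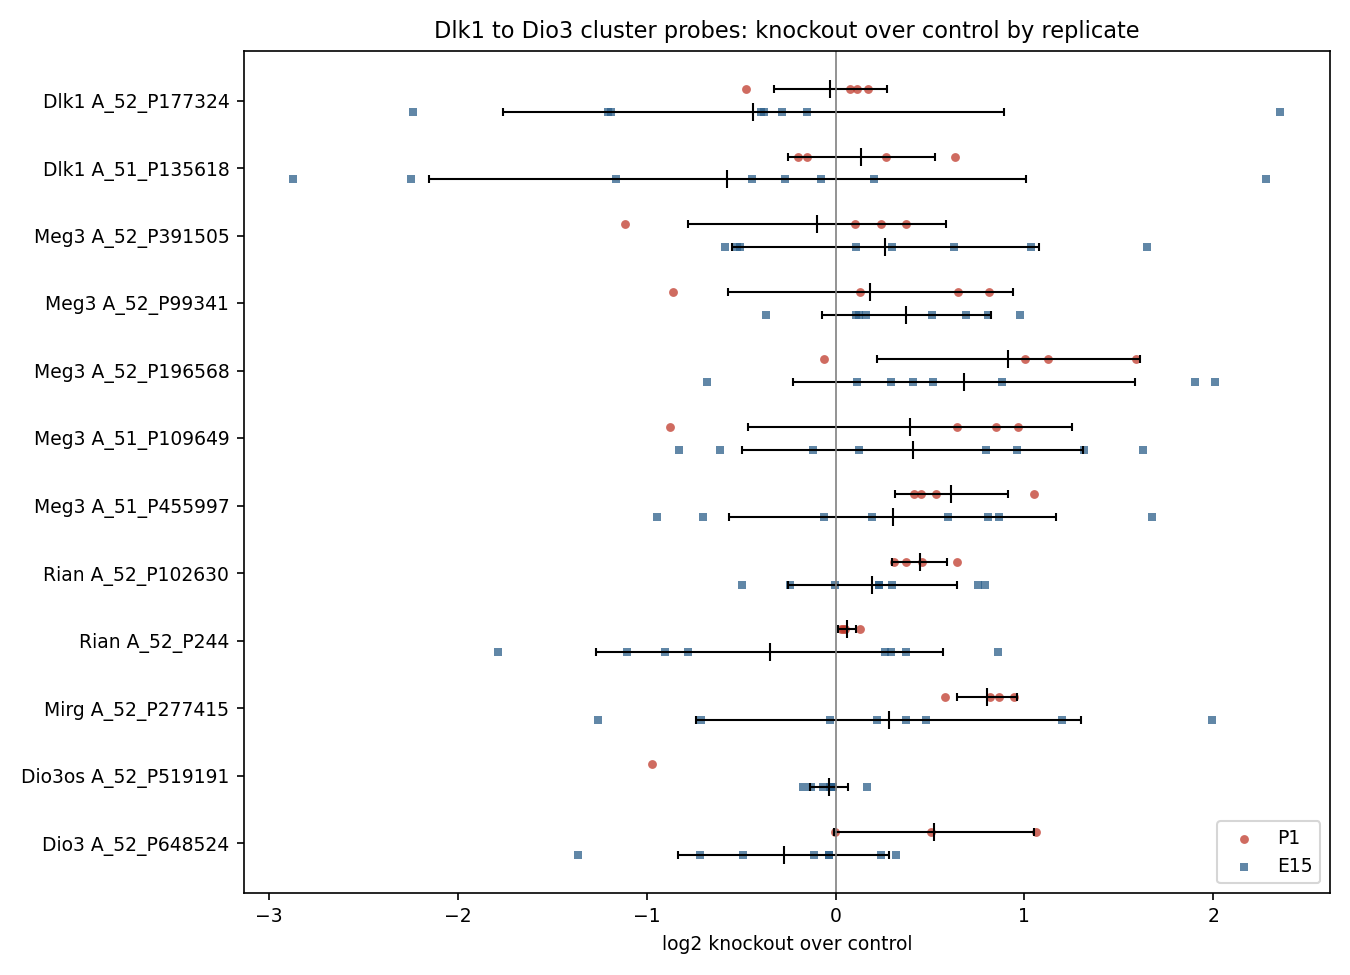
Log2 knockout over control (horizontal axis) of each of the 12 probes (rows), with P1 replicates as circles above and E15 replicates as squares below, and bars for mean and SD. The 4 P1 values of Mirg lie between 0.58 and 0.94, while its 8 E15 values run from -1.26 to 1.99.

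**Figure D2:**
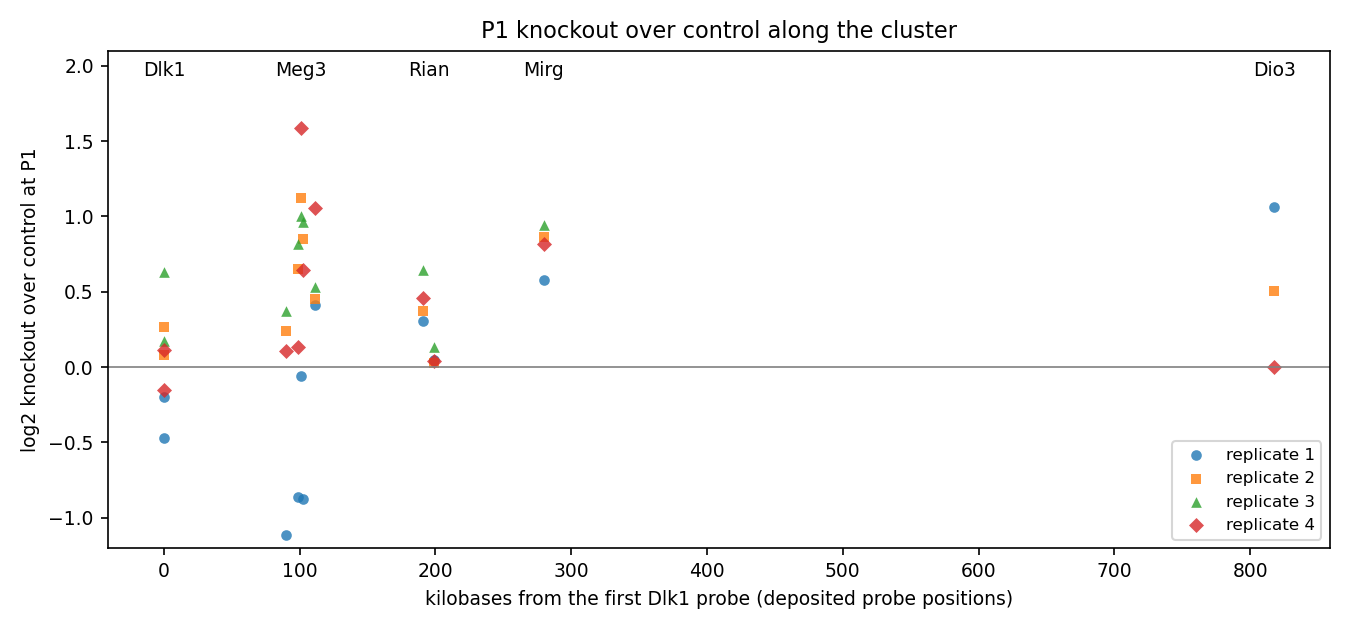
Log2 knockout over control at P1 (vertical axis) against the distance of the probe from the first Dlk1 probe in kilobases (horizontal axis), 1 marker shape per replicate. The Dlk1 values stay between -0.47 and 0.63, the Meg3 values run from -1.11 to 1.59 and the Mirg values from 0.58 to 0.94.

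At E15 the cluster differed widely between single animal pairs and in no common direction. None of the 12 probes lay on the same side of 0 in all 8 replicates, which 0.762% of all probes did above 0 and 0.606% below. The SD over replicates was 0.45 to 1.58 at the 10 probes for Dlk1, Meg3, Rian and Mirg, against a median of 0.173 over all probes. Each of those 10 had a larger SD than at least 91.7% of the 34005 probes.

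Dlk1 probe A_51_P135618 had ratios of -2.25, -0.07, -0.44, -2.87, 0.20, -1.16, -0.27 and 2.28 in replicates 1 to 8, a mean of -0.57 (SE 0.52, SD 1.58, n = 8). The second probe followed it, from -2.24 in replicate 4 to 2.36 in replicate 8, with a mean of -0.44 (SE 0.44, n = 8). At A_51_P135618 the lowest values came from replicates 1 and 4, which share control animal 1. At the other probe, A_52_P177324, replicate 6, set against control 5, was at -1.21 and replicate 1 at -1.19. At A_51_P135618 replicate 1 gave -3.18 on its array with control 1 and -1.31 on its array with control 6. Control 1 had a Dlk1 level of 13.51, against 9.61 to 11.20 in the other 5 controls. The highest value came from knockout animal 8, with a level of 12.13 against 9.73 to 10.87 in the other 7 knockout animals.

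The same animals stood out in genes of skeletal muscle, a tissue that expresses Dlk1 in the embryo. All 16 genes of that list passed the filter on dim probes at E15 and 15 at P1. The median log2 level of the 16 muscle genes was 10.66 in knockout animal 8, against 6.48 to 8.36 in the other 7, and 11.49 in control 1, against 6.49 to 8.63 in the other 5. As a ratio the muscle list ran from -3.34 in replicate 4 to 2.88 in replicate 8, and the list of meninges and fibroblasts from -1.85 to 2.45 in those replicates. Knockout animal 8 also stood apart in other lists. Its median level of 11 cartilage and bone genes was 9.09, against 6.74 to 7.00 in the other 7, and the ratio of that list was 2.15 in replicate 8, against -0.65 to 0.07 in the others. The ratio of 14 forebrain markers was -1.54 in replicate 8, against -0.37 to 0.58, and that of 13 hindbrain and cord markers was 1.01, against -0.43 to 0.30. At P1 the muscle level was 6.46 to 6.84 in knockout brains and 6.48 to 6.85 in control brains. The part of these tissues and brain regions in the E15 values was not tested. In RNA of a whole tissue, fewer cells of a type and less RNA per cell cannot be told apart.

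Without replicates 1, 4 and 8 the E15 means were -0.35 and -0.48 at the Dlk1 probes and 0.45 at Mirg, and ran from 0.31 to 0.80 at the Meg3 probes.

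Mirg and the Meg3 probes were also high in replicate 8, but they were not all lowest in the same replicate. Mirg had ratios of -0.71, 0.48, -0.03, -1.26, 0.37, 1.20, 0.22 and 1.99, a mean of 0.30 (SE 0.33, SD 1.02, n = 8). The 5 Meg3 probes had means of 0.25 to 0.70, each with a SE of 0.14 to 0.30, and each was highest or next to highest in replicate 8. Mirg was lowest in replicate 4 and 4 of the 5 Meg3 probes in replicate 1. In replicate 4, Meg3 A_52_P99341 was at 0.16 and A_52_P196568 at 0.12. Meg3 probes A_52_P196568 and A_52_P99341 were above 0 in 7 of 8 replicates, the other 3 in 5 of 8. Rian A_52_P102630 had a mean of 0.21 (SE 0.15, n = 8).

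Rian A_52_P244 divided the E15 replicate means, though not every array, by scan day. It was -0.78, -0.90, -1.79 and -1.11 in replicates 1 to 4, each with an array scanned on day 3. In replicates 5 to 8, scanned on days 1 and 2, it was 0.37, 0.26, 0.29 and 0.86. Replicate 1 gave 0.14 on its array with control 6 and -1.71 on its array with control 1. The 2 arrays of replicate 6 gave 0.57 and -0.05. Controls 1 and 2 had levels of 10.96 and 10.20 at this probe, against 8.59 to 9.45 in the other controls. The mean ratio of this probe over all 8 replicates was -0.33 (SE 0.31, SD 0.92), and -0.35 (SE 0.13) with scan day as a block. Within scan days the mean of Mirg was -0.38 on day 3 and 0.95 on days 1 and 2 (SD 0.76 and 0.82, n = 4 each), and that of Meg3 A_52_P196568 was 0.06 and 1.30 (SD 0.52 and 0.78). For Dlk1 A_51_P135618 it was -1.41 and 0.26 (SD 1.36 and 1.46). Scan day goes in part with the control used, since controls 1 and 2 appear only on day 3 and controls 4 and 5 only on days 1 and 2.

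Dio3 at E15 ran from -1.36 in replicate 4 to 0.32 in replicate 8, a mean of -0.27 (SE 0.19, SD 0.56, n = 8). Dio3os ran from -0.17 to 0.17, with a mean of -0.03 (SD 0.10, n = 8). Its E15 signal was close to that of adjacent spots, with a median of 75.5 units in knockout channels against 63.6 to 85.3 beside it, so its E15 ratio is one of near-background signals.

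**Figure D3:**
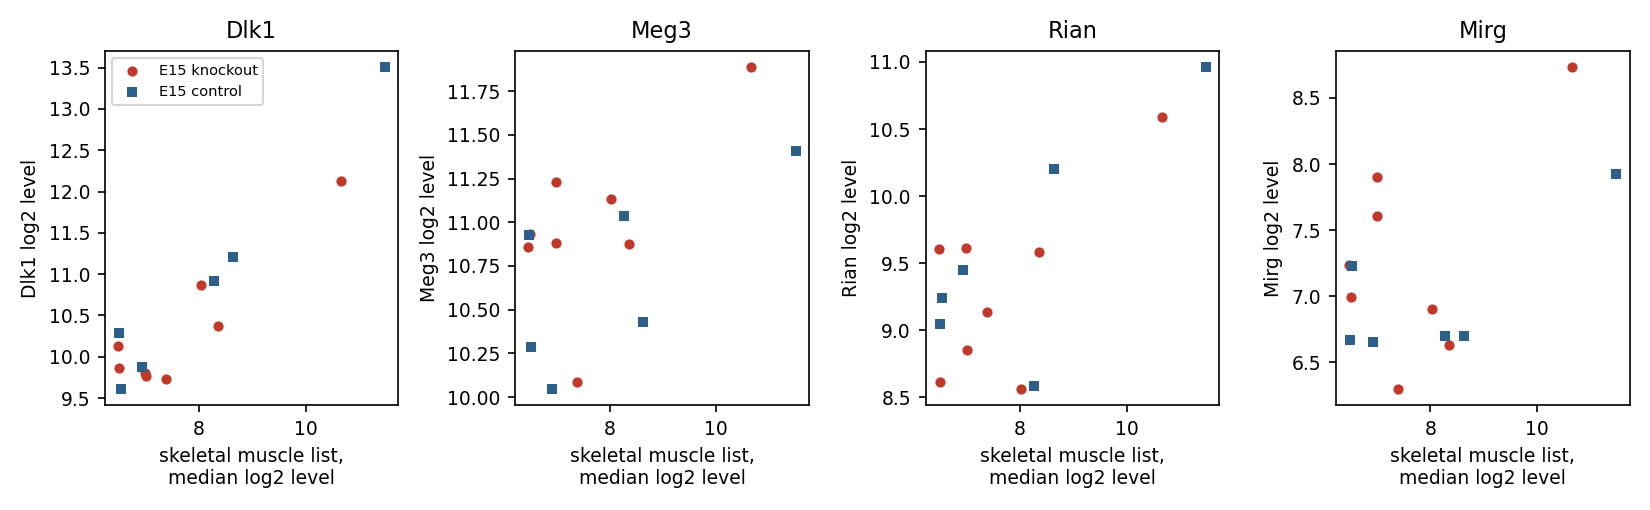
Log2 level of Dlk1, Meg3, Rian and Mirg (vertical axes, brightest probe of each) against the median log2 level of 16 skeletal muscle genes (horizontal axes) in 8 E15 knockout animals (circles) and 6 E15 control animals (squares). Knockout animal 8 (muscle level 10.66) and control 1 (11.49) lie far to the right, and in the Dlk1 panel they are the highest of their groups at 12.13 and 13.51.

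Levels of the members were set against each other and against the muscle and meninges lists across the 8 E15 knockout animals, a family of 14 relations by the brightest probe of each gene. None passed the adjusted threshold of 0.05, and 6 had an unadjusted exact permutation p under it. Mirg and Meg3 had Pearson's r = 0.866 and Spearman's rho = 0.714 with n = 8. Without the 2 animals farthest from the median Meg3 level, knockouts 1 and 8, r was 0.417. Dlk1 and the muscle list had r = 0.918 and rho = 0.5, and r was 0.617 without knockouts 4 and 8. Dlk1 and the meninges list had r = 0.888 and rho = 0.857, and r stayed at 0.852 without knockouts 7 and 8.

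These levels enter the ratios by which the members were chosen, so the relations are a description and nothing is read from the counts. Of the 14 relations, 7 had r of the opposite sign when the 2 farthest animals were left out. The animals of a group scanned on the same day were too few for a value within days.

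Between the ages, both Dlk1 probes had lower means and all 5 Meg3 probes higher means at P1 than at E15, in knockout and in control brains. In knockout brains limma's test with Benjamini-Hochberg adjustment over 36315 probes called 28.2% of all probes, 12.8% higher and 15.4% lower at P1. Of the 11 member probes with more than 1 P1 animal, 3 were called higher and 1 lower. The same difference in control brains was used to choose the members, so nothing is read from these counts. The groups of the 2 ages did not overlap at 4 of the 11, with P1 above at 2 (9.22% of all probes) and below at 2 (9.27%).

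Dlk1 A_51_P135618 had levels of 8.53, 8.67, 9.23 and 9.03 in P1 knockout brains, against 9.73, 9.86, 10.87, 10.37, 9.81, 9.76, 10.13 and 12.13 in E15 knockout brains. The ages did not overlap, and the difference was -1.47 on the log2 scale (SE 0.39). Without E15 knockout 8, the animal high in muscle genes, it was -1.21. At the second Dlk1 probe the difference was -1.08 (SE 0.41), and -0.78 without knockout 8. In control brains the differences were -2.17 (SE 0.63) and -1.45 (SE 0.37), with 8.73, 8.41, 8.60 and 9.18 at P1 and 13.51, 11.20, 9.88, 9.61, 10.92 and 10.29 at E15 for the first probe. All P1 controls lay below all E15 controls at both probes, beside 16.3% of all probes, and 36.7% of all probes passed the test in controls. The first difference was -1.65 without control 1.

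Meg3 A_52_P196568 had levels of 10.70, 11.62, 11.55 and 12.06 in P1 knockout brains, against 7.63 to 10.40 (median 9.42) in E15 knockout brains. The difference was 2.14 (SE 0.45), and the ages did not overlap. It was 1.77 (SE 0.35) at A_51_P109649 and 1.00 (SE 0.20) at A_52_P99341. The brightest probe, A_51_P455997, differed by 0.65 (SE 0.24), and A_52_P391505, with the gapped placement, by 0.24 (SE 0.23). In control brains the differences were 1.94, 1.83, 1.18, 0.34 and 0.54 for these 5 probes in the same sequence (SE 0.15, 0.20, 0.25, 0.27 and 0.29). The first 3 of these probes did not overlap between ages in control brains, with P1 above. In control brains that was so for 4373 of all 36315 probes.

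The probes of Meg3 thus gave age differences from 0.24 to 2.14 in knockout brains. In order along the chromosome these were 0.24, 1.00, 2.14, 1.77 and 0.65, largest in the middle of the probed stretch. Differences between probes were not tested.

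Rian split again. A_52_P244 differed by -0.89 at P1 (SE 0.32), with levels of 8.06 to 8.76 at P1 and 8.56 to 10.59 at E15. A_52_P102630 differed by 0.29 (SE 0.17). Mirg differed by 0.65 (SE 0.36), with levels of 7.83 to 8.11 at P1 and 6.30 to 8.73 at E15, and by 0.86 without knockout 8. In control brains the P1 and E15 difference was 0.16 for Mirg (SE 0.25), -1.21 for Rian A_52_P244 (SE 0.39) and 0.06 for Rian A_52_P102630 (SE 0.09). Dio3 differed by -0.01 in knockout brains (SE 0.29, 3 P1 animals) and by -0.82 in control brains (SE 0.24, 3 P1 animals). With outlier spots kept those differences were 0.26 and -0.39.

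**Figure D4:**
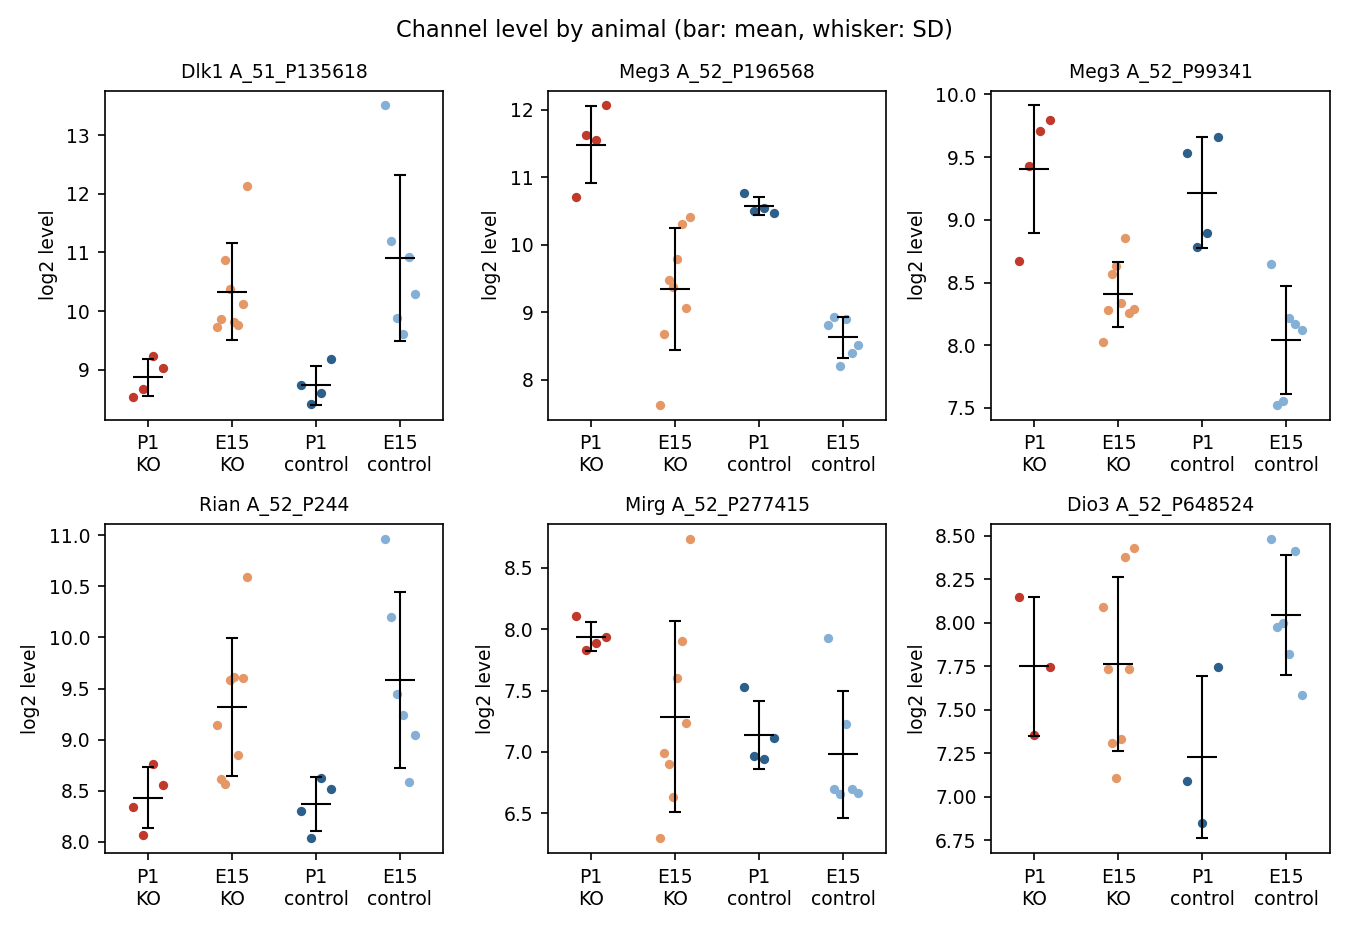
Log2 level of 6 member probes (panels) by animal in P1 knockout, E15 knockout, P1 control and E15 control brains (points), with mean and SD. Dlk1 A_51_P135618 is lower at P1 (8.53 to 9.23 in knockout brains) than at E15 (9.73 to 12.13), and Meg3 A_52_P196568 is higher at P1 (10.70 to 12.06) than at E15 (7.63 to 10.40).

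Dio3os was bright at P1 and near background at E15, but 7 of its 8 P1 spots were marked outliers by the scanner software. The scanned signal had a median of 717.1 units in P1 knockout channels and 736.2 in P1 control channels, against 75.5 in E15 knockout and 81.1 in E15 control channels, with adjacent spots at 51.7 to 76.7 units at P1. With the outlier spots set aside 1 P1 animal of each kind was left, at 9.82 in knockout and 10.80 in control, against means of 6.29 (SD 0.06, n = 8) in E15 knockout and 6.31 (SD 0.08, n = 6) in E15 control brains. With those spots kept, the P1 means were 9.59 (SD 0.24, n = 4) in knockout and 9.60 (SD 0.24, n = 4) in control brains, and knockout over control at P1 was -0.01 (SD 0.29, n = 4). An age difference that rests on 1 unmarked P1 array is not counted among the calls above.

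The ratio patterns most like Meg3 A_51_P455997 over the 12 replicates, each age centred on its own mean, were those of Cyfip1 (r = 0.970), Cnksr3 (0.966), Ago2 (0.952), Cd164 (0.943) and Aff4 (0.941), of 31293 probes. Ago2, the Argonaute protein that carries microRNAs, had r = 0.966 over the E15 and 0.895 over the P1 replicates, whereas Cyfip1 had 0.990 and 0.469. Other members ranked lower, with Dlk1 A_51_P135618 at rank 117 (r = 0.875), Mirg at rank 720 (r = 0.795) and the other Meg3 probes between ranks 521 and 4074. Among the patterns most like Dlk1 A_51_P135618 were those of Epcam (r = 0.977), Fndc3c1 (0.977), Krt19 (0.975) and Erbb2 (0.974), of which Epcam and Krt19 are genes of epithelia. Over the P1 replicates alone r was -0.31 for Epcam, 0.81 for Fndc3c1, 0.75 for Krt19 and 0.90 for Erbb2, against 0.98 to 0.99 over the E15 replicates. The other Dlk1 probe had rank 36 (r = 0.953) and Mirg rank 851 (r = 0.852). These are descriptions over replicates that share arrays and, at E15, control animals.

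For 7 measured neighbours of the cluster, among them Yy1, Wars and Wdr25, the median P1 ratio was -0.01, and replicate medians ran from -0.10 to 0.25. Between ages in knockout brains Hsp90aa1 rose by 0.48 (SE 0.16, limma adjusted p = 0.0403) and Slc25a29 fell by 0.40 (SE 0.13, limma adjusted p = 0.0332). Of 5 other probes placed between Dlk1 and Dio3, 2 passed the filter at either age, and 1 of them, A_52_P278837, fell by 1.29 at P1 in knockout brains (SE 0.29, limma adjusted p = 0.00642).

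Of 27 measured genes from other imprinted regions, 9 fell and 2 rose at P1 relative to E15 in knockout brains, with a median difference of -0.38, against -0.07 over all probes. Mest (-2.48, SE 0.41, limma adjusted p = 0.000874), Cdkn1c (-1.63, SE 0.48, limma adjusted p = 0.0247), a cell cycle inhibitor, Plagl1 (-1.56, SE 0.34, limma adjusted p = 0.00603), a transcription factor, and Grb10 (-1.45, SE 0.34, limma adjusted p = 0.00700), a growth factor receptor adaptor, had the largest differences. Their median knockout over control ratio was -0.04 at P1 and -0.05 at E15.

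Of 20 genes of imprint maintenance and Polycomb, 10 fell and 1 rose between ages in knockout brains (median -0.46). Ezh2, the Polycomb methyltransferase, fell by 1.23 (SE 0.14, limma adjusted p = 5.3e-05), Uhrf1, which brings Dnmt1 to replicating DNA, by 1.13 (SE 0.26, limma adjusted p = 0.00672) and Eed by 0.80 (SE 0.23, limma adjusted p = 0.0227). Mef2c, a transcription factor of neurons and muscle, rose by 2.12 (SE 0.48, limma adjusted p = 0.00664).

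In the Notch pathway, to which Dlk1 is related by sequence, 7 of 22 genes fell and 1 rose (median -0.28). The receptor Notch1 rose by 1.57 (SE 0.40, limma adjusted p = 0.0123), while the ligands Jag1 and Dll3 fell by 0.91 (SE 0.20, limma adjusted p = 0.00506) and 0.80 (SE 0.16, limma adjusted p = 0.00281) and the DNA-binding effector Rbpj by 1.09 (SE 0.16, limma adjusted p = 0.000480). Of 21 genes of thyroid hormone handling, the pathway of Dio3, 5 rose and 1 fell (median 0.08). The thyroid hormone target Nrgn rose by 1.94 (SE 0.28, limma adjusted p = 0.000387), Ncoa1 by 0.69 (SE 0.17, limma adjusted p = 0.00947), the retinoid receptor Rxrg by 0.65 (SE 0.18, limma adjusted p = 0.0180) and the thyroxine transporter Slco1c1 by 0.59 (SE 0.09, limma adjusted p = 0.000374). For each of these lists the share that passed stands beside 28.2% of all probes, and no list was tested.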

How the data were processed

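Total RNA of whole brain was amplified, labelled with Cy3 or Cy5 and hybridised to dual-colour Agilent arrays, per the labels' protocols. The deposited scanner files hold spot and local background intensity per channel from Agilent Feature Extraction, and the log10 ratio of red over green, per the file headers. The deposited value table also holds log10 ratios, whose direction was found by setting each column against its array's scanner ratio. The files state no genome build for the probe positions.

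Mean intensity was corrected with normexp (offset 50, limma 3.58.1, R 4.3.3), and arrays were normalized by loess with control spots at weight 0 and outlier-marked spots missing. Spots of a probe and arrays of a knockout replicate were averaged after turning each to knockout over control. E15 replicates 3 and 4 were corrected by the mean dye effect of the others. Levels per animal came from separate channels after Aquantile over all 22 arrays. A probe was kept if 50% of an age's channels were well above background. P1 gene names were taken from the E15 files by probe. P1 controls carry no number in the labels and were taken as 1 animal per knockout replicate.

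In the E15 ratio fit, replicates linked by a common control formed a random block (consensus correlation 0.0601). P1 and E15 levels in knockout animals were tested with limma and Benjamini-Hochberg adjustment at 0.05 over all probes kept, and the p-values are given only for genes that are not members, since the members' knockout levels hold values used to choose them. Correlations had exact two-sided permutation tests (SciPy 1.17.1). Only counts of the relations under 0.05 are given, without their p-values, for the same reason. Both procedures were tested on simulated data. The text names every member probe, the 5 other genes most like Meg3 and Dlk1, and from each pathway list up to 4 genes with the largest P1 and E15 difference in knockout animals among those that passed, except 1 gene that is not reported here. The members and the lists were chosen with earlier results of these data known. Alternatives covered background, signals, normalization, filters, outlier spots, blocks and left-out animals. The number of arrays limits the precision.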

Additional observations from a re-analysis of the deposited data

Results flagged for a closer look

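In 8 of 66 sets of 4 to 8 values of the member probes, 1 animal lay farther from the rest than Dixon's 95% critical value for the gap. That limit is passed by chance in about 1 in 20 independent groups, but ratios and levels here share animals and the ratios were used to choose the members, so the count is a description. Of the 8 values, 3 came from E15 knockout 8 and 4 from P1 knockout 1.

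Dlk1 A_52_P177324 in E15 knockout 8 had a knockout over control ratio of 2.36, with the nearest other replicate at -0.15, and a level of 10.15, with the nearest at 7.97. In the same animal the level of Meg3 A_52_P391505 was 9.84, with the nearest at 9.02. The median level of the 16 muscle genes in that animal was 10.66 and that of 11 cartilage and bone genes 9.09, and the part of these tissues in the values was not tested.

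In P1 knockout 1 the Dlk1 A_52_P177324 ratio was -0.47, with the nearest at 0.08. Its Meg3 levels stood apart in both directions, at 8.44 for A_52_P391505 (nearest 9.51), at 9.87 for A_51_P109649 (nearest 10.99) and at 11.89 for A_51_P455997 (nearest 11.57). The level of 9.87 rests on 1 array, because the other spot was marked an outlier. The 2 lower probes and the higher one read the same gene in the same RNA.

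Dio3os in E15 replicate 5 had a ratio of 0.17, with the nearest at -0.01, from signals near background.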

How the results depend on the processing

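The difference of Dlk1 A_51_P135618 and of 3 Meg3 probes between ages in knockout brains, given without p-values because of how members were chosen, kept its direction in the 12 fits that left out 1 animal and in the 11 other settings. The number of probes called between ages was 6084 in knockout and 7625 in control brains with no normalization between arrays, against 10249 and 13321. Knockout over control at E15 gave 1 call, against 0, with the deposited table and with the scanner's processed signals, and 0 to 1 when 1 replicate was left out. The age difference of Dio3 in knockout brains, -0.01, was 0.26 with outlier spots kept, 0.11 with the replicate block and -0.21 to 0.19 when 1 animal was left out. That of Meg3 A_52_P391505 was -0.032 with no normalization between arrays, against 0.24. The number of correlations passing was 0 to 3 when 1 knockout animal was left out, with 3 without animal 7. Over those fits r ran from -0.27 to 0.74 for Dlk1 and Mirg, from -0.19 to 0.85 for Dlk1 and Rian, from -0.27 to 0.55 for Meg3 and Rian, from -0.017 to 0.84 for muscle and Meg3 and from -0.48 to 0.62 for muscle and Mirg, each below 0 without animal 8. The cause of these changes was not tested. The knockout animals of both ages share replicate numbers 1 to 4, but same-numbered animals correlated at -0.16 to 0.13 over 4 pairs, so the numbers were taken as names. A replicate block gave 8031 calls, and under it the differences were 1.23 for Mirg, 0.55 for Rian A_52_P102630, -0.80 for Dlk1 A_52_P177324 and 0.88 for Meg3 A_51_P455997. Scan day as a block was not run at P1, where all arrays share 1 day. The settings without the animals highest in muscle genes were chosen after seeing the data. Dim probes limit Rian A_52_P102630, Dio3os at E15, Dlk1 A_52_P177324 at P1 and the P1 control channels of Mirg.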
